A study of Mus musculus with 6 samples.

Results

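Astrocytes and radial glia are described here through 34 genes that mark them, compared between primary hippocampal cells with a Diras2 knockdown and cells with a scrambled control. A member was measured by a probe set that the array's annotation gives to that gene symbol alone, and by the brightest over all 6 arrays where a gene had several. All 34 listed genes were found among the 22180 genes tested. The knockdown group held 3 samples infected with AAV1/2, an adeno-associated virus, carrying a construct against Diras2, a small GTPase of the Ras family. The control group held 3 samples infected in the same way with a scrambled sequence. Every sample came from hippocampi of mouse embryos at day 18, cultured in Neurobasal medium with B27 supplement, infected 7 days after seeding and taken for RNA 7 days after that. Each was read on 1 Affymetrix array. The labels call the replicates biological. They do not say whether these came from separate cultures or litters, so p-values measure only the spread between these samples, which may be technical. Nor do they say which promoter drove the construct or which cells the virus entered. No uninfected sample is part of the comparison.

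Radial glia are the stem cells of the embryonic brain. They make neurons first and astrocytes later, and their filament proteins Vim and Nes and their lipid carrier Fabp7 mark this stage. Astrocytes take up glutamate and potassium released by neurons, pass ions and metabolites to each other through gap junctions, and secrete lipoproteins and matrix proteins that act on synapses. Neurobasal medium with B27 favours neurons, and astrocytes are usually a minority in such a culture.

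Values are log2 expression levels made with RMA, so a difference of 1 is a doubling. Each probe set has its own brightness, and levels were compared between arrays and not between genes. Diras2, the targeted gene, had 7.17, 6.23 and 6.08 in the knockdown arrays, against 10.17, 10.17 and 9.76 in the control arrays. Its difference of -3.54 had an SE of 0.27 and an adjusted p of 0.00063 by limma. Median levels of the 6 arrays lay between 4.03 and 4.11.

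The defining glial markers were read on every array. Gfap, the filament protein that defines astrocytes, lay between 7.42 and 8.93 over the 6 arrays, and Aqp4, the water channel of astrocyte endfeet, between 7.56 and 8.22. S100b, a calcium-binding protein in use as an astrocyte marker, lay between 3.08 and 3.74, and Gjb6, a gap junction protein of mature astrocytes, between 2.86 and 3.39. No detection call or background value was used here, so whether a gene lay above background was not tested.

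**Figure D1:**
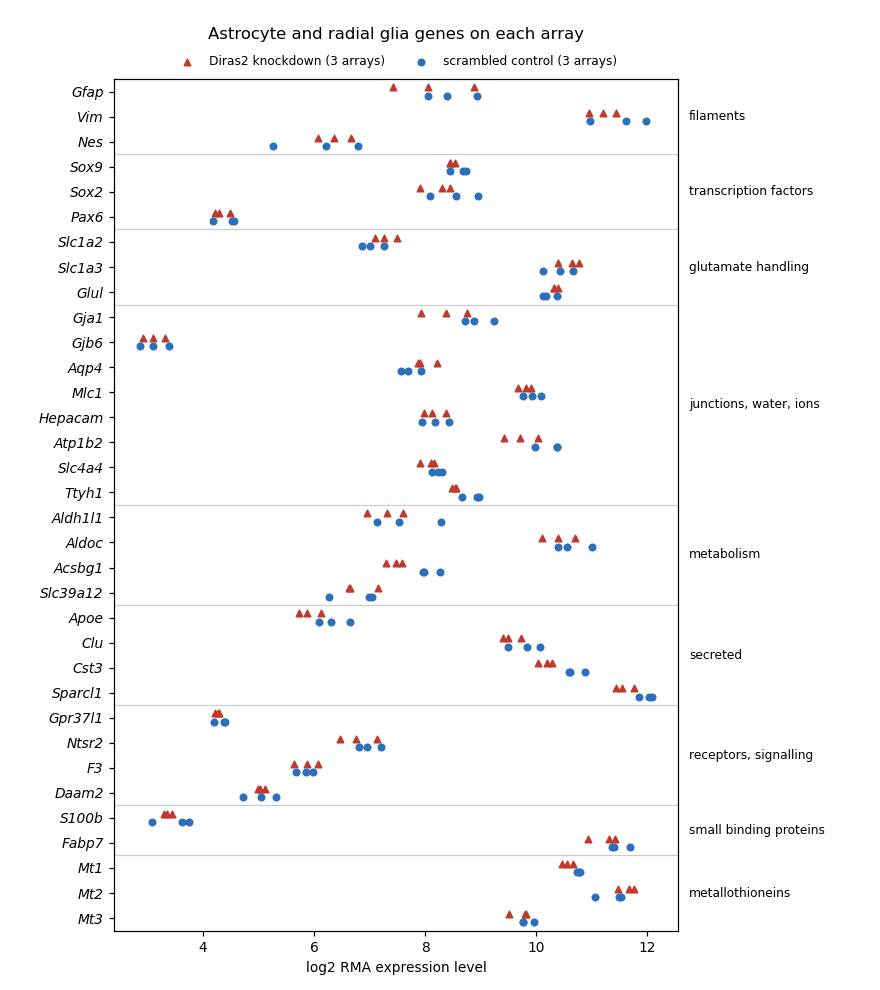
Log2 RMA expression level (horizontal axis) of each of the 34 genes on each array, with knockdown arrays as red triangles above control arrays as blue circles and genes grouped by role. Knockdown and control points interleave for most genes, and lie apart for Acsbg1, Cst3, Sparcl1, Ttyh1 and Mt1.

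By limma at an adjusted p under 0.05, 2 of the 34 genes were lower in the knockdown, 0 were higher and 32 showed no call. The 2 that fell were Acsbg1, a fatty acid enzyme, and Cst3, a secreted protease inhibitor. They were 5.88% of the members, where 3.64% of all genes tested fell, 4.17% rose and 7.80% were called in either direction, so the share called was near that of all genes. In RNA of a mixed culture, fewer cells of a type and less RNA per cell cannot be told apart. At an unadjusted p under 0.05, 7 members were lower and 0 higher. The share of all genes under that unadjusted threshold was not counted, so these 7 are not set against a background. The median log2 difference of the members was -0.16, against 0.00 over all genes, and 25 of the 34 lay below 0, or 73.5% against 49.6% of all genes. All differences lay between -0.62 and 0.28. For 30 of the 34 genes the 95% interval of the difference stayed within a 2-fold change in either direction, and the exceptions were Gfap, Nes, Aldh1l1 and Gja1.

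Samples of the 2 groups share replicate numbers. Deviations of same-numbered arrays from their group means correlated across genes at 0.427, 0.121 and 0.374, and those of other pairs at -0.378 to 0.057. Deviations within a group cancel for each gene, so positive values for same-numbered pairs push those of other pairs down. The other pairs are therefore no independent contrast. The correlation was weak for replicate 2. The labels do not say that same-numbered samples belong together, and the pairing was taken up in part from these same values. With the replicate number as a block 5 members fell and 0 rose, or 14.7%, where 5.64% of all genes fell and 6.05% rose in that fit. Sparcl1, Gja1 and Apoe were then called in addition to Acsbg1 and Cst3. In all 3 same-numbered pairs 12 members were lower in the knockdown, or 35.3% against 22.0% of all genes, and 3 were higher, or 8.82% against 23.0%. The groups did not overlap for 5 members, all lower in the knockdown, or 14.7% against 12.1% of all genes. Among all genes 13.4% did not overlap and were higher, and among the members 0 did.

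**Figure D2:**
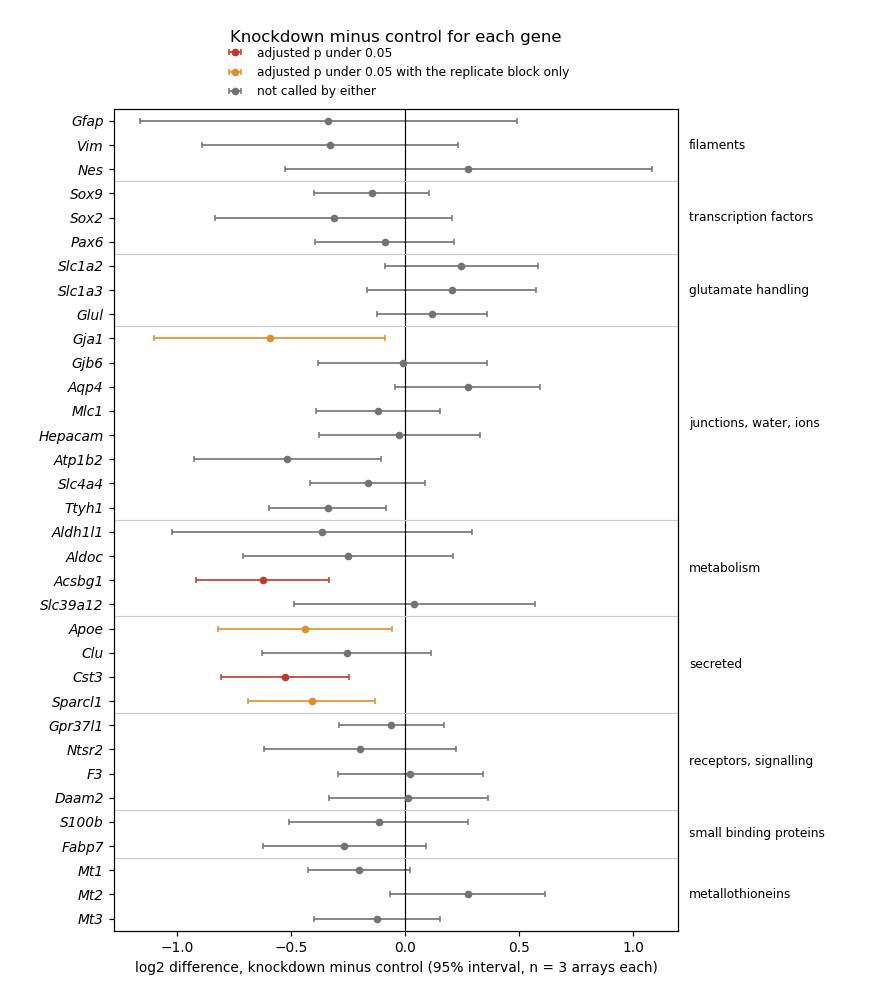
Log2 difference, knockdown minus control, with its 95% interval from limma (horizontal axis) for each of the 34 genes, grouped by role. Acsbg1 and Cst3 (red) passed at an adjusted p under 0.05, Gja1, Apoe and Sparcl1 (orange) only with the replicate block, and the intervals of the other genes in grey include 0 except those of Atp1b2 and Ttyh1.

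Among enzymes and transporters of metabolism 1 of 4 members fell. Among all genes 3.64% fell, and a group of 4 is too small to set against that share. Acsbg1 encodes an acyl-CoA synthetase that activates long-chain fatty acids and is known in the mouse brain mainly from astrocytes. Its level was 7.48, 7.29 and 7.58 in the knockdown arrays, against 7.98, 7.97 and 8.27 in the control arrays. Every knockdown array was below every control array. The difference of -0.62 (SE 0.13, n = 3 arrays each) is a 1.54-fold lower level, with an adjusted p of 0.0232 by limma, or 0.0104 with the replicate block. The same-numbered pairs differed by -0.50, -0.68 and -0.69. Acsbg1 was no longer called after knockdown array 1 (0.0561) or 2 (0.0928) or control array 2 (0.0660) or 3 (0.0545) was left out, nor when the fit held RNA integrity (0.103).

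Other members of that group did not pass. Aldh1l1, a folate enzyme used to mark astrocytes, had 6.95, 7.31 and 7.61 in the knockdown arrays, against 7.14, 7.53 and 8.29 in the control arrays. The groups overlapped, while each knockdown array lay below the control array of its number. Aldoc, the brain form of a glycolytic aldolase, had a log2 difference of -0.25 and Slc39a12, a zinc importer of astrocytes, one of 0.04.

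Of the 4 secreted proteins 1 fell, 3 fell with the replicate block, and all had differences below 0. Among all genes these shares were 3.64%, 5.64% and 49.6%, and a group of 4 is too small to set against them. Cst3 encodes cystatin C, an inhibitor of cysteine proteases that astrocytes and other cells release. It had 10.20, 10.03 and 10.28 in the knockdown arrays, against 10.59, 10.61 and 10.89 in the control arrays, with no overlap. The difference was -0.53 (SE 0.12), a 1.44-fold lower level, with an adjusted p of 0.0386 by limma, or 0.0193 with the block. A dimmer probe set of the same gene, not used in the test, showed a difference of -0.54. Cst3 was no longer called after any 1 of the 6 arrays was left out (0.0506 to 0.141), when the fit held RNA integrity (0.154), or on the mean of both probe sets (0.0618).

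Sparcl1 encodes a matrix protein, also called hevin, through which astrocytes promote the formation of synapses. Its values were 11.55, 11.44 and 11.77 in the knockdown arrays, against 12.04, 11.86 and 12.09 in the control arrays. The groups did not overlap, and the pairs differed by -0.49, -0.42 and -0.32. The difference of -0.41 (SE 0.12) had an adjusted p of 0.0872 by limma, 0.0393 with the block and 0.0413 with an intensity trend in the variance.

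Apoe, the main lipid carrier that astrocytes secrete, had 5.87, 5.73 and 6.13 in the knockdown arrays, against 6.09, 6.31 and 6.65 in the control arrays. The groups overlapped only through knockdown replicate 3 and control replicate 1, and each pair was lower in the knockdown, with differences of -0.22, -0.58 and -0.52. The difference of -0.44 (SE 0.17) had an adjusted p of 0.172 by limma, or 0.0492 with the block. Clu, the secreted chaperone clusterin, had a difference of -0.26, with 9.50, 9.41 and 9.73 in the knockdown arrays and 9.50, 9.84 and 10.07 in the control arrays.

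The promoters of Acsbg1 and Cst3 are shown because these are the 2 members that fell in the fit without a block. Each sequence covers 250 bases before and 50 bases after the RefSeq start of the gene on assembly GRCm38.p6, read 5′ to 3′ on the gene's strand. Acsbg1 lies at chr9:54661836-54662135 on the minus strand and Cst3 at chr2:148875463-148875762 on the minus strand. Capitals mark TTGGC, the core motif of NFI transcription factors, and GGGCGG, the GC box, on either strand. Acsbg1 held 2 NFI motifs and 0 GC boxes, and Cst3 held 0 NFI motifs and 2 GC boxes. Of all 32851 RefSeq promoters, 46.7% hold the NFI motif and 35.7% the GC box, and a match does not show that a factor binds.
Acsbg1: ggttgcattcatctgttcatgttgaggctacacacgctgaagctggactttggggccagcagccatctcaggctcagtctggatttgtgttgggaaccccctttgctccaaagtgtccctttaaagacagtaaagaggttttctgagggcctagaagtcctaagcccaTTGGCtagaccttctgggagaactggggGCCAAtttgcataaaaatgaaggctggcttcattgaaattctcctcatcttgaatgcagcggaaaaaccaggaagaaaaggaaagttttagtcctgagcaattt
Cst3: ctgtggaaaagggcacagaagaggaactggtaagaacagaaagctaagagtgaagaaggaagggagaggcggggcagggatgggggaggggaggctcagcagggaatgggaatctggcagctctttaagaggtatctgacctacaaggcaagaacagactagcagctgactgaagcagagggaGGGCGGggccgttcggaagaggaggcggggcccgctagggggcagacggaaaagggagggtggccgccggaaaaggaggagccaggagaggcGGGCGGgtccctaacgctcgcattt

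**Figure D3:**
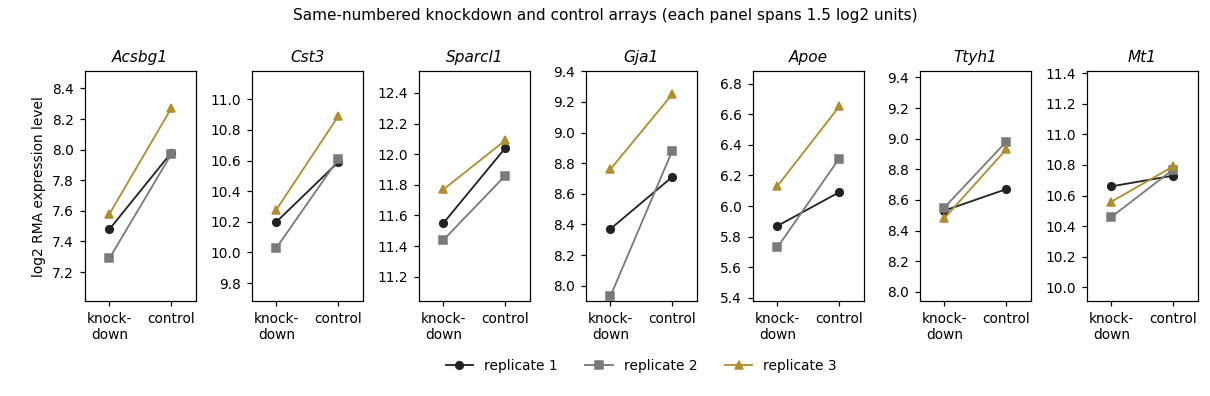
Log2 RMA expression level (vertical axis, each panel spanning 1.5 units) of the members called with or without the replicate block, and of Ttyh1 and Mt1, whose groups did not overlap. Lines join the knockdown (left) and control (right) arrays of the same replicate number, and in every panel the knockdown end of all 3 lines lies below the control end.

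Membrane proteins for gap junctions, water and ions made up 8 members, of which 0 passed the test and 1 fell with the block. That 1 was 12.5% of the group, where 5.64% of all genes fell with the block. A group of 8 is too small to set against that share. Gja1 encodes the main gap junction protein of astrocytes. It had 8.37, 7.93 and 8.76 in the knockdown arrays, against 8.71, 8.88 and 9.25 in the control arrays. Knockdown replicate 3 lay above control replicate 1, while each knockdown array was below the control array of its number. The difference of -0.59 (SE 0.22) had an adjusted p of 0.166 by limma, or 0.0385 with the block.

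Atp1b2, the glial beta subunit of the sodium pump that also acts in adhesion, had 10.04, 9.42 and 9.71 in the knockdown arrays, against 10.37, 10.37 and 9.98 in the control arrays. Its difference was -0.52 (SE 0.18) with an adjusted p of 0.138, which became 0.0788 with the block and 0.0356 with array weights. Ttyh1, a membrane protein of the tweety family found in neural stem cells and astrocytes, had 8.53, 8.55 and 8.48 in the knockdown arrays, against 8.67, 8.98 and 8.93 in the control arrays. The groups did not overlap, and the difference of -0.34 (SE 0.11) had an adjusted p of 0.120, which became 0.0948 with the block and 0.0406 with array weights.

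Aqp4 stood on the other side of 0 from the rest of this group. Its values were 8.22, 7.88 and 7.91 in the knockdown arrays, against 7.93, 7.70 and 7.56 in the control arrays. All 3 pairs were higher in the knockdown, the groups overlapped, and the difference of 0.27 (SE 0.14) had an adjusted p of 0.318. Mlc1 and Hepacam, which form an astrocyte membrane complex whose human genes are mutated in a leukodystrophy with brain swelling, had differences of -0.12 and -0.03. Slc4a4, a sodium bicarbonate transporter, had -0.16 and Gjb6 -0.01.

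The 3 genes of glutamate handling all had differences above 0 and none passed. Slc1a2, the transporter that clears most synaptic glutamate in the forebrain, had 7.50, 7.10 and 7.26 in the knockdown arrays, against 7.26, 7.00 and 6.86 in the control arrays. The groups overlapped, and each pair was higher in the knockdown, by 0.24, 0.10 and 0.40. The difference of 0.25 had a 95% interval of -0.09 to 0.58. Slc1a3, the glutamate transporter of radial glia and young astrocytes, had a difference of 0.20 with an interval of -0.17 to 0.57. Glul, the enzyme that turns glutamate into glutamine, had 10.32, 10.32 and 10.40 in the knockdown arrays, against 10.18, 10.13 and 10.38 in the control arrays. Its interval, -0.12 to 0.36, was narrow, and a dimmer probe set of the same gene showed a difference of 0.14.

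Filament genes had wide spreads within groups. Gfap had 8.89, 7.42 and 8.06 in the knockdown arrays, against 8.93, 8.39 and 8.06 in the control arrays. Knockdown replicate 2 was the low array, and the other 2 pairs differed by -0.04 and 0.00. The difference of -0.34 had an interval of -1.16 to 0.49, and without knockdown replicate 2 it was 0.02 after rounding. Vim had 10.95, 11.20 and 11.44 in the knockdown arrays, against 10.98, 11.62 and 11.98 in the control arrays, a difference of -0.33. A dimmer Vim probe set showed -0.48. Nes had 6.06, 6.35 and 6.67 in the knockdown arrays, against 5.25, 6.21 and 6.79 in the control arrays. Control replicate 1 was the low array for Nes, and without it the difference of 0.28 became -0.14.

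None of the 3 transcription factors of neural stem cells passed, with or without the block. Sox9, needed for astrocyte fate, had 8.44, 8.53 and 8.44 in the knockdown arrays, against 8.44, 8.73 and 8.68 in the control arrays, a difference of -0.15 with an interval of -0.40 to 0.11. Sox2, which keeps progenitors in the stem cell state, had 7.90, 8.31 and 8.44 in the knockdown arrays, against 8.09, 8.55 and 8.95 in the control arrays. All 3 pairs were lower in the knockdown and the difference was -0.31, with an adjusted p of 0.509, or 0.118 with the block. Pax6, a radial glia factor, had a difference of -0.09. Another probe set carries its symbol together with that of a second gene, was not used in the test and cannot be given to either gene. It had 7.68, 7.72 and 7.58 in the knockdown arrays, against 7.32, 7.30 and 7.05 in the control arrays. That difference, 0.44 with no overlap between groups, is opposite in sign to the one from the probe set tested, so the direction for Pax6 is unsettled.

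None of the 4 receptors and signal proteins passed, with or without the block. Gpr37l1, a glial G protein-coupled receptor, had -0.06. Ntsr2, a neurotensin receptor of astrocytes, had -0.20. F3, the clotting initiator tissue factor, had 0.02 and Daam2, a formin of Wnt signalling, 0.01. Fabp7 had 10.93, 11.42 and 11.32 in the knockdown arrays, against 11.41, 11.70 and 11.36 in the control arrays. The groups overlapped, all 3 pairs were lower, and the difference of -0.27 had an adjusted p of 0.397. S100b had a difference of -0.12.

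Metallothioneins are small cysteine-rich proteins that bind zinc and copper, and Mt1 and Mt2 are induced by these metals through the factor Mtf1. The 3 members did not move one way and none passed. Mt1 had 10.66, 10.46 and 10.56 in the knockdown arrays, against 10.73, 10.77 and 10.79 in the control arrays, without overlap. Its difference of -0.20 (SE 0.10) had an adjusted p of 0.288. Mt2 had 11.68, 11.48 and 11.76 in the knockdown arrays, against 11.07, 11.50 and 11.53 in the control arrays. Control replicate 1 was the low array, and the difference was 0.27 (SE 0.15) with an adjusted p of 0.358. Mt3, the brain form, had 9.80, 9.52 and 9.82 in the knockdown arrays, against 9.77, 9.77 and 9.97 in the control arrays, a difference of -0.12. The difference between Mt1 and Mt2 in their response was not tested.

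Mt1 and Mt2 are neighbours, with RefSeq start sites 6471 bases apart on GRCm38.p6, and their promoters are shown because these adjacent genes of 1 family had differences of opposite sign. Mt1 lies at chr8:94178839-94179138 and Mt2 at chr8:94172368-94172667, both on the plus strand, in windows of the same layout. Capitals mark the core of the metal response element, searched as TGCACNC and TGCGCNC on both strands. Mt1 held 3 cores and Mt2 held 4, of which 2 were on the minus strand, and 25.7% of all promoters hold 1 or more. These counts depend on where the window falls, and cores outside it were not searched.
Mt1: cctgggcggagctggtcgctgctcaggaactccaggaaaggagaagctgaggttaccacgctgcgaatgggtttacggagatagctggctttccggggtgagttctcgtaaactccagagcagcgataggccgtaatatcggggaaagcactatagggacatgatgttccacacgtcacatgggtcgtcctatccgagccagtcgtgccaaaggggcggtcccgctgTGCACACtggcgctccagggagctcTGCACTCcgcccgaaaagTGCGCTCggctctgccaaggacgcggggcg
Mt2: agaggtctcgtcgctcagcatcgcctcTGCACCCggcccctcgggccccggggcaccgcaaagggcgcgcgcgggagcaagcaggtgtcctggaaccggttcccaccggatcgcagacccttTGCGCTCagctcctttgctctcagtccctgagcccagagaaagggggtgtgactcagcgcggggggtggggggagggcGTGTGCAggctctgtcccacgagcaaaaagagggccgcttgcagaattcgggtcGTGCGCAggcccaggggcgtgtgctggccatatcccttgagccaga

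Genes of zinc, copper and iron handling were read beside them. This list and those below were chosen with earlier results of these data known. Their shares are therefore no independent comparison with all genes. Of 30 metal handling genes measured 2 rose, 3 fell and 25 did not pass, with a median difference of 0.07. The shares were 6.67% and 10%, against 4.17% of all genes that rose and 3.64% that fell. Slc30a9, a zinc transporter linked to mitochondria, had 8.48, 7.92 and 7.71 in the knockdown arrays, against 9.59, 9.59 and 9.60 in the control arrays. That is a 2.94-fold lower level with no overlap and an adjusted p of 0.00274 by limma. Slc30a4, which loads zinc into vesicles, fell 2.33-fold (0.0101). Slc30a7, a Golgi zinc transporter, rose 1.92-fold (0.00132) and Slc39a9, another zinc transporter, 1.86-fold (0.00204). The third that fell was Slc30a3, the zinc transporter of synaptic vesicles (-0.91), named after its values were seen. Mtf1 itself, named after its values were seen, had a difference of -0.03.

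Other genes known from astrocytes, 37 of 40 listed being measured, gave 1 that rose, 2 that fell and 34 that did not pass, with a median of -0.20. The shares were 2.70% and 5.41%, against 4.17% of all genes that rose and 3.64% that fell. With the replicate block 1 rose and 9 fell, or 24.3% against 5.64% of all genes. The groups did not overlap, lower in the knockdown, for 13 of the 37, or 35.1% against 12.1% of all genes. For 6 they did not overlap and were higher, or 16.2% against 13.4%. Kcnj10 encodes the potassium channel through which astrocytes buffer potassium. It had 6.39, 6.54 and 6.28 in the knockdown arrays, against 6.99, 7.23 and 7.73 in the control arrays, a 1.88-fold fall with an adjusted p of 0.0226. Ppp1r3c, which targets a phosphatase to glycogen, fell 1.73-fold (0.0300). Nfib, a factor of the NFI family that promotes glial fate, had 10.19, 9.82 and 10.11 in the knockdown arrays, against 9.26, 9.32 and 9.58 in the control arrays, and rose 1.57-fold (0.0260). Ptprz1, a receptor phosphatase of glial progenitors, had a difference of -0.56 and an adjusted p of 0.0519, or 0.0137 with the block. Ednrb, the endothelin receptor of astrocytes, and Gabrg1, a GABA receptor subunit, were among those called only with the block, named after their values were seen, at -0.97 and -0.64. Without control replicate 2 the calls of Kcnj10 (0.0759), Ppp1r3c (0.0807) and Nfib (0.110) were lost. So were those of Kcnj10 without knockdown replicate 1, 2 or 3 (0.0604 to 0.0900), of Ppp1r3c without knockdown replicate 2 or 3 or control replicate 3 (0.0662 to 0.0952) and of Nfib without knockdown replicate 1 or 3 or control replicate 1 (0.0646 to 0.0979).

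Of 27 measured further genes of radial glia and neural stem cells 3 fell, 0 rose and 24 did not pass, and 22 lay below 0. The share that fell was 11.1%, against 3.64% of all genes, and the groups did not overlap, lower in the knockdown, for 10 of the 27, or 37.0% against 12.1%. Tnc, the matrix protein tenascin C, had 5.27, 5.44 and 5.56 in the knockdown arrays, against 6.05, 6.39 and 6.52 in the control arrays, a 1.86-fold fall with an adjusted p of 0.00898 by limma. Pou3f4, a POU-domain transcription factor, had 5.21, 5.27 and 5.33 in the knockdown arrays, against 5.71, 6.20 and 6.67 in the control arrays, and fell 1.90-fold (0.0386). Ptn, the growth factor pleiotrophin that binds the Ptprz1 receptor, fell by 0.49 on the log2 scale (0.0444). Hes1, a repressor downstream of Notch, had a difference of -0.45 with an adjusted p of 0.0802, or 0.0262 with the block. The call of Tnc was lost without control replicate 2 (0.0517), that of Pou3f4 without that array or any 1 knockdown array (0.0995 to 0.131), and that of Ptn without every array but control replicate 3 (0.0674 to 0.150).

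Genes known to rise in reactive astrocytes gave 1 that rose, 3 that fell and 23 that did not pass among 27 measured, with a median of -0.06. The shares were 3.70% that rose and 11.1% that fell, against 4.17% and 3.64% of all genes. The groups did not overlap, lower in the knockdown, for 6 of the 27, or 22.2% against 12.1% of all genes. For 1 they did not overlap and were higher, or 3.70% against 13.4%. With the block 4 fell and 1 rose, or 14.8% and 3.70%, against 5.64% and 6.05% of all genes. The gene added was Serpina3n, a protease inhibitor induced in reactive astrocytes, at -0.99 (0.00794), named after its values were seen. Its adjusted p without the block was 0.144. B3gnt5, an enzyme of glycolipid synthesis, had 5.39, 5.25 and 5.18 in the knockdown arrays, against 6.05, 6.47 and 6.48 in the control arrays, a 2.08-fold fall with an adjusted p of 0.00386. S1pr3, a receptor for sphingosine-1-phosphate, fell 1.61-fold (0.0155) and Cd44, the hyaluronan receptor, 1.58-fold (0.0497). Stat3, the transcription factor through which astrocytes respond to cytokines, rose 1.59-fold (0.0176), with 8.80, 8.46 and 8.43 in the knockdown arrays and 7.78, 7.98 and 7.91 in the control arrays. Gfap and Vim, which also rise in reactive astrocytes and are members here, had the differences of -0.34 and -0.33 given above. Their adjusted p was 0.684 and 0.522 by limma. Of the 27 reactive astrocyte genes 14 lay below 0 and 12 above, or 51.9% and 44.4%, against 49.6% and 49.7% of all genes. The calls of S1pr3 (0.0743), Stat3 (0.0588) and Cd44 (0.116) were lost without control replicate 2 and without knockdown replicate 2 (0.0733, 0.0526 and 0.142), those of S1pr3 (0.0516) and Cd44 (0.150) also without knockdown replicate 3, and that of Cd44 without control replicate 1 (0.103) or 3 (0.0635).

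Carriers, receptors and transporters of lipoproteins, which handle the lipid that Apoe carries, gave 1 that rose and 1 that fell among 17 measured, or 5.88% each, against 4.17% and 3.64% of all genes. Lrp8, a receptor for apolipoprotein E and reelin, had 9.34, 9.17 and 9.24 in the knockdown arrays, against 8.61, 8.58 and 8.66 in the control arrays, a 1.55-fold rise with an adjusted p of 0.0068. Npc1, which exports cholesterol from lysosomes, fell by 0.59 on the log2 scale (0.0470), a call lost without every array but control replicate 1 (0.0658 to 0.164). Vldlr, a relative of Lrp8, had a difference of 0.32 (0.214) and Sorl1, a sorting receptor, one of -0.42 (0.214).

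**Figure D4:**
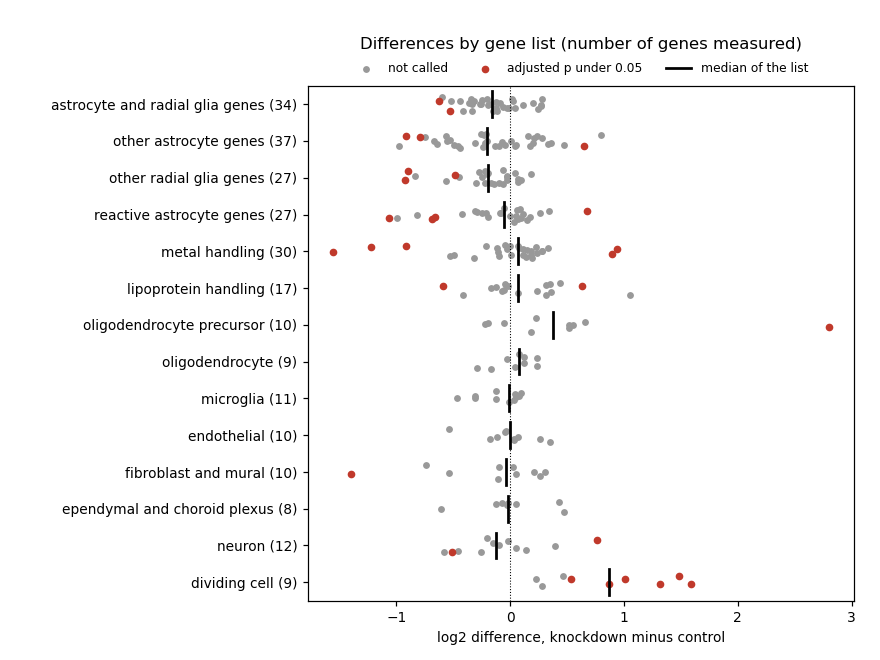
Log2 difference, knockdown minus control (horizontal axis), of every measured gene in each list, with genes called at an adjusted p under 0.05 in red, the rest in grey and the median of the list as a black bar. The glial lists in the upper rows have medians between -0.20 and -0.06, and the dividing cell markers in the last row have a median of 0.87 with every gene above 0.

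Markers of other cell types were read on the same arrays, and their part in the glial values was not tested. These lists too were chosen with earlier results of these data known. Of 9 measured markers of dividing cells 6 rose and 0 fell, or 66.7% against 4.17% of all genes that rose, with a mean log2 level of 4.70 to 5.25 in knockdown arrays and of 4.09 to 4.18 in control arrays. Mki67, a nuclear protein of cycling cells, rose by 1.48 on the log2 scale (adjusted p 0.0165), and Top2a, the topoisomerase of dividing cells, had 4.74, 5.77 and 5.86 in the knockdown arrays, against 4.19, 4.10 and 4.12 in the control arrays. Leaving out control array 2 gave a count of 1 in place of 6, and leaving out knockdown array 2 or 3 or control array 3 gave 2. Of 10 oligodendrocyte precursor markers 7 lay above 0, or 70% against 49.7% of all genes. The mean level of the 10 was 5.43 to 6.30 in knockdown arrays and 5.18 to 5.54 in control arrays. By limma 1 of the 10 rose, or 10% against 4.17% of all genes. That marker was Pdgfra, the growth factor receptor of these cells, with 5.94, 8.08 and 7.22 in the knockdown arrays, against 4.33, 3.91 and 4.60 in the control arrays. Cspg4, the proteoglycan NG2 of the same cells, had a difference of -0.05. With the block 3 of the 10 rose, or 30.0% against 6.05% of all genes, and Lhfpl3 (0.66) and C1ql1 (0.52) were those added, named after their values were seen.

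Neuron markers, 12 measured, gave 1 that rose (Dcx, of young neurons) and 1 that fell (Snap25, of synaptic vesicle fusion), with a mean level of 10.27 to 10.53 in knockdown arrays and of 10.29 to 10.66 in control arrays. The shares were 8.33% each, against 4.17% of all genes that rose and 3.64% that fell. The median difference was -0.12, 8 of the 12 lay below 0, and 7 were lower in all 3 pairs, or 58.3% against 22.0% of all genes. At an unadjusted p under 0.05 there were 5, and with the block 3 fell, or 25.0% against 5.64%. Syt1, the calcium sensor of vesicle release, and Nefm, a neurofilament, were those added, at -0.58 and -0.45, named after their values were seen. Rbfox3, the nuclear protein NeuN, had a difference of -0.02 and Tubb3, a neuronal tubulin, one of 0.39, and neither passed. Of 10 fibroblast and mural cell markers 1 fell (Rgs5, of pericytes), or 10% against 3.64% of all genes. With the block 2 of these 10 fell, or 20% against 5.64%. The mean level of the 10 was 5.82 to 6.17 in knockdown arrays and 6.16 to 6.23 in control arrays. By limma 0 of 9 oligodendrocyte, 0 of 10 endothelial, 0 of 8 ependymal and choroid plexus and 0 of 11 microglia markers passed. At an unadjusted p under 0.05 the counts were 0, 0, 0 and 2. Neither these counts nor the 5 neuron markers can be set against all genes, whose share under that unadjusted threshold was not counted. With the block 1 microglia marker fell (Csf1r, at -0.46), or 9.09% against 5.64% of all genes. Ttr, the thyroxine carrier that choroid plexus makes, had 10.48, 11.49 and 9.10 in the knockdown arrays, against 10.49, 11.49 and 10.91 in the control arrays, where knockdown replicate 3 was the low array. Aif1 and Cx3cr1, which mark microglia, had differences of 0.03 and -0.31. The mean level of the 34 glial genes was 8.13 over the knockdown arrays and 8.28 over the control arrays. It was lower in the knockdown in all 3 same-numbered pairs, with differences of -0.02, -0.30 and -0.15.

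Members also differed in which replicate number was high within a group. Replicate 3 lay above replicate 1 in both groups for 18 members, or 52.9%, where 30.0% of all genes do, and replicate 1 lay above replicate 3 in both groups for 9 members, or 26.5% against 29.8%. The first set holds Vim, Nes, Sox2, Pax6, Aldh1l1, Gja1, Apoe, Clu, Cst3 and Acsbg1 among others. The second holds Gfap, Aqp4, Slc1a2, Slc1a3, Aldoc and Atp1b2 among others. Of 12 neuron markers 11 were above in replicate 1 in both groups and 0 in replicate 3, and of 27 further radial glia genes 19 were above in replicate 3 and 2 in replicate 1. RNA integrity numbers of replicates 1, 2 and 3 were 9, 9.3 and 9.2 in the knockdown and 9.2, 9 and 8.8 in the control. These values describe arrays and not a treatment, and the part of culture or RNA quality in them was not tested.

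**Figure D5:**
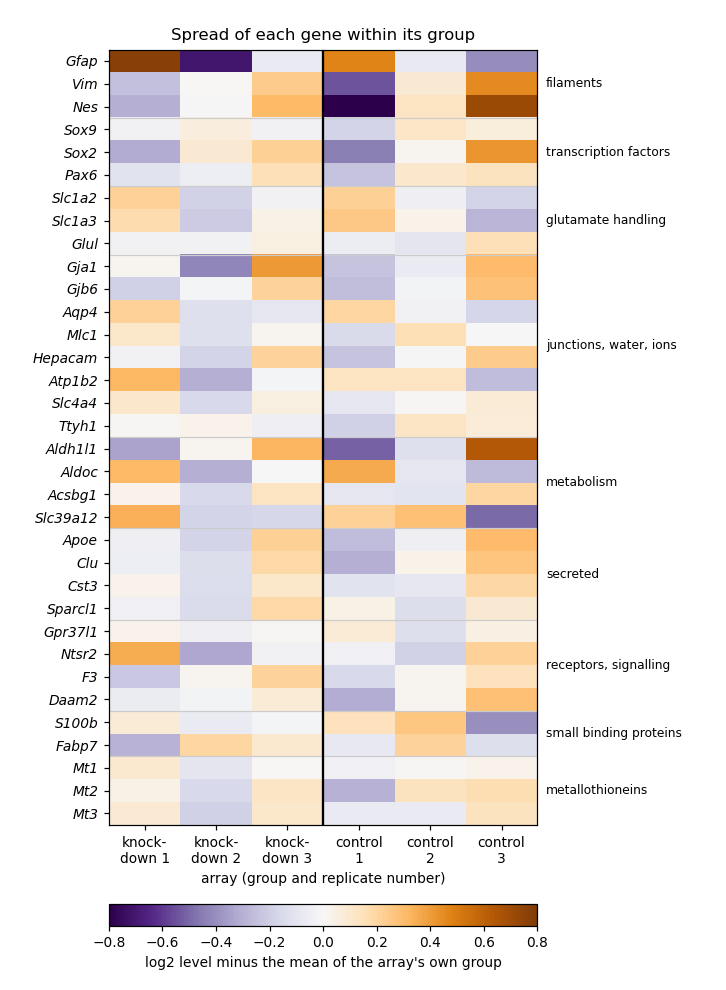
Colour shows the log2 level of each gene on each array minus the mean of that array's own group, for knockdown arrays (left 3 columns) and control arrays (right 3 columns). Vim, Nes, Sox2 and Aldh1l1 are purple in replicate 1 and orange in replicate 3 of both groups, and Aldoc, Aqp4 and Slc1a2 are orange in replicate 1 of both.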

How the data were processed

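RNA of 3 knockdown and 3 control samples was read on 1 Affymetrix array each. Values were deposited by the authors on the log2 scale. Per the submitters' processing notes the authors used RMA and Affymetrix Expression Console 1.2.1.20. That method corrects background, quantile-normalises the arrays and summarises probes, which removes shifts common to all genes. The table held 41345 probe sets, of which 23521 had 1 gene symbol, 1814 several and 16010 none. The brightest probe set over all arrays stood for each of 22180 genes, and 1082 genes had more than 1. Of the genes 21994 were matched to RefSeq by gene ID and 186 were not.

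Genes were tested with limma 3.58.1 in R 4.3.3 (lmFit and eBayes, knockdown minus control, Benjamini-Hochberg over all genes, threshold 0.05), and intervals are 95% intervals of the moderated fit. No filter on dim genes was applied. The precision is limited by the number of arrays. On simulated data with 200 changed genes among 22180, 11.9% of changes of 0.5, 67.2% of changes of 1 and 98.5% of changes of 2 on the log2 scale were found, with 4 false calls. The fit of the real data called 1731 genes, and more changed genes loosen the Benjamini-Hochberg cut-off on p. The simulated shares may therefore be lower than those in the real data. Correlations of array deviations from the group means were 0.427, 0.121 and 0.374 for same-numbered arrays, and -0.378 to 0.057 for others. Because deviations within a group cancel for each gene, the values for others are no independent contrast. The labels number the replicates in both groups, and every same-numbered correlation was over 0.1, so the number was used as a pairing in an alternative fit.

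Any of the 34 members could be named. Per-array values were given for those that passed, the 6 with the largest differences that did not, the 3 brightest and the 3 metallothioneins, and for some others. In other lists the 4 genes with the smallest p and in marker lists the first 2 genes were named, and exceptions are marked or follow from a count. The members and lists were chosen with earlier results of these data known. The fit was repeated with the replicate number as a block, without each array, after quantile normalisation or median centring, without dim genes, with an intensity trend, array weights or RNA integrity, and on the mean over probe sets of each gene. The check of dividing cell markers without each array was added after seeing the data. Promoters came from RefSeq on GRCm38.p6.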

Additional observations from a re-analysis of the deposited data

How the results depend on the processing

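The count of members that fell was 2. It was 5 with the replicate block (pairing by number), 4 with array weights, 1 with probe sets averaged per gene, 0 with RNA integrity as a covariate, and 0 to 1 when each array was left out. It was 3 with an intensity trend. Counts over all genes moved too: 807 fell in the fit reported, 1252 with the block, 1302 with array weights, 783 with probe sets averaged, 356 with RNA integrity, 858 with the trend, and 306 to 687 when an array was left out. No member rose under any of the 14 alternatives. Over all genes 383 to 1401 of 22180 rose under them, and 1171 of 11088 with dim genes left out. In the fit reported 4.17% of all genes rose, a share at which few of 34 genes would be called. The median difference of the members stayed between -0.20 and -0.08. Of the 34 members 25 kept the sign of their difference under every alternative run for them and 9 did not. Leaving out dim genes gave no value for Gjb6, S100b, Gpr37l1, Pax6 and Daam2. Gjb6 became 0.0133 with median centring, 0.0232 with array weights and 0.0804 with RNA integrity, Hepacam 0.12 and Ntsr2 0.0051 with RNA integrity, and Slc39a12 -0.15 with array weights and -0.0332 with RNA integrity. Without 1 array the ranges were -0.72 to 0.015 for Gfap, -0.14 to 0.63 for Nes, -0.14 to 0.13 for Gjb6, -0.15 to 0.10 for Hepacam, -0.21 to 0.18 for Slc39a12, -0.08 to 0.14 for F3, -0.14 to 0.16 for Daam2 and -0.32 to 0.0133 for S100b. The cause was not tested.

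Of the further astrocyte genes 9 fell with the block, or 24.3% against 5.64% of all genes. Without 1 array 0 to 5 of them fell and 0 to 1 rose. Without 1 array 0 to 4 further radial glia genes fell, 1 to 5 reactive astrocyte genes fell and 0 to 1 rose, and 0 to 1 lipoprotein genes fell and 1 to 2 rose. Dividing cell markers that rose numbered 1 to 5. Over all 22180 genes, 306 to 687 fell and 383 to 800 rose without 1 array. In the simulation with 200 changed genes, 11.9% of changes of 0.5 on the log2 scale were found. The fit of the real data called 1731 genes, and the share of such changes it finds was not measured. With 3 arrays a group, members that did not pass are not shown to be equal.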
